A study of Mus musculus with 19 samples.

Results

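The 10 genes described here encode enzymes and core subunits that write, maintain or remove DNA methylation, or that place the repressive Polycomb mark on histones. They are Dnmt1, Uhrf1, Dnmt3a, Dnmt3b, Tet1, Tet2, Tet3, Ezh2, Eed and Suz12. They were chosen by symbol from 18193 genes with a probe set of a single symbol, and all 10 passed the filter on low signal that left 12148 genes for testing. Signal was measured on 19 Affymetrix Mouse430+2 arrays of C57BL/6 mouse cerebellum cells, taken with no culture or treatment before RNA extraction. NEPs, 4 arrays, are progenitors that express Nestin, and GNPs, 4 arrays, are progenitors positive for Math1. NSCs, 3 arrays numbered 1, 2 and 6 here, are CD133+, Lin- cerebellar progenitors, Lin- meaning negative for lineage markers. NEP tumor, 4 arrays, is tumor cells of Nestin-CreERT2/Ptch1C/C mice, and GNP tumor, 4 arrays, is tumor cells of Math1-CreERT2/Ptch1C/C mice. In both tumor models a Cre recombinase that tamoxifen switches on is driven by the named promoter and acts on Ptch1, the receptor that restrains Hedgehog signalling. Age, sex and any pooling of the mice are not given, nor whether the arrays of a group are of different mice. Each p-value thus measures the spread between these arrays, which may be technical.

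DNA methylation at CpG sites is copied after replication by Dnmt1, which Uhrf1 brings to hemimethylated DNA. Dnmt3a and Dnmt3b add methyl groups to sites that had none, and the Tet dioxygenases oxidise methylcytosine as a step toward its removal. Ezh2, Eed and Suz12 form the core of Polycomb repressive complex PRC2, which methylates histone H3 and keeps developmental genes silent. In the postnatal cerebellum, PRC2 and the maintenance pair are known from dividing granule neuron progenitors, and Dnmt3a is also a prominent enzyme of maturing neural cells.

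Each gene is represented by its brightest probe set, ranked by the mean log2 signal over the 19 arrays. A difference is the log2 signal of the group named first minus that of the other, its standard error (SE) is that of a limma fit over all arrays, and a gene was called at a Benjamini-Hochberg adjusted p under 0.05 over the 12148 genes. Probe sets differ in their response, so levels are compared between groups for each gene and not between genes. In bulk RNA, fewer cells of a type and less RNA per cell cannot be told apart.

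Several facts of the arrays touch the results. The array titles carry a number shared by NEP and GNP arrays, and another shared by NSC and tumor arrays. The titles do not say what this number stands for. It is read here as the number of a run, and arrays that share it are called a run. Poly-A spike-ins, RNAs added before labelling, averaged 8.82 ± 0.25 on the log2 scale (SD, n = 8) with NEPs and GNPs and 6.67 ± 0.28 (SD, n = 11) with the others. Group and run therefore cannot be told apart in comparisons with NSCs or of a tumor with its progenitor, and this holds for every such value below. The NEP arrays also differed among themselves. The median of 11 microglia and macrophage genes was 8.83 and 9.05 in NEP arrays 1 and 2, 3.74 and 2.04 in arrays 3 and 4, and 1.86 to 2.14 in GNPs. In NEP arrays 1 and 2, 0 of the 11 genes lay below the array median, against 3 in array 3, 8 in array 4 and 8 to 10 in GNPs. Pericyte, fibroblast and meningeal genes followed, at 9.23 and 9.30 in NEP arrays 1 and 2 and 6.28 or less in arrays 3 and 4. The array medians of these genes averaged 2.98 in GNPs and 7.62 in NSCs. Astrocyte and Bergmann glia genes had a median of 9.82 to 10.35 in all 4 NEP arrays and 3.04 to 4.04 in GNPs, and 10 of 10 were called higher in NEPs. Of 6 oligodendrocyte lineage genes 5 were higher in NEPs, and of 12 differentiating neuron genes 9 were lower and 1 higher. Of 9 endothelial genes 9 were higher in NEPs than in GNPs. In NEPs against NSCs, 9 of 10 astrocyte and Bergmann glia and 4 of 6 oligodendrocyte lineage genes were higher. So were 2 of 10 pericyte, fibroblast and meningeal and 1 of 11 microglia and macrophage genes, and 0 of 9 endothelial genes were called. Among 12 differentiating neuron genes 7 were lower in NEPs than in NSCs and 3 higher. In GNPs against NSCs, 9 of 9 endothelial and 9 of 10 astrocyte and Bergmann glia genes were lower. So were 8 of 10 pericyte, fibroblast and meningeal, 3 of 6 oligodendrocyte lineage and 1 of 11 microglia and macrophage genes. Of 12 differentiating neuron genes 5 were higher in GNPs than in NSCs and 0 lower. In GNP tumors against GNPs, 10 of 10 astrocyte and Bergmann glia, 6 of 11 microglia and macrophage and 4 of 6 oligodendrocyte lineage genes were higher, with median differences of 3.12, 2.91 and 1.94. In NEP tumors against NEPs 7 of 10 astrocyte and Bergmann glia and 3 of 11 microglia and macrophage genes were lower. So were 9 of 10 pericyte, fibroblast and meningeal and 8 of 9 endothelial genes, while 9 of 12 differentiating neuron genes were higher. Of 10 granule neuron progenitor genes, 8 were lower in NEPs than in GNPs and 9 lower than in NSCs, with 0 higher in either. In NEP tumors against NEPs 8 of these 10 were higher and 0 lower. The part of these genes' cell types in the members' differences was not tested. The values on NEP arrays 3 and 4 cannot test it, because pericyte, fibroblast and meningeal genes still lay above GNPs there. Astrocyte and Bergmann glia genes, at 10.22 and 10.35 in arrays 3 and 4, were also not lower than the 9.82 and 9.97 of arrays 1 and 2. The population labelled NSC had Prom1, the gene of CD133, at 8.08 ± 0.11, against 7.24 ± 0.17 in GNPs and 8.61 ± 0.30 in NEPs. It had Atoh1, the gene of Math1, at 8.93 ± 0.012, close to 8.85 ± 0.086 in GNPs. Atoh1 was 3.95 ± 1.59 in NEPs, 10.47 ± 0.15 in NEP tumors and 9.43 ± 0.034 in GNP tumors. Nes, the gene of Nestin, was 4.47 ± 0.12 in NSCs and 5.87 ± 0.19 in NEPs.

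NEPs had less signal than GNPs for most of the machinery. Dnmt1, Uhrf1, Dnmt3b, Tet1, Ezh2, Eed and Suz12 were lower in NEPs, Dnmt3a and Tet2 were higher, and Tet3 was not called. These are 9 of 10 members called, in a comparison where 69.5% of all genes tested were called, 29.6% higher and 39.9% lower. NEPs also differed from NSCs in 9 members, 8 lower and Tet2 higher, where 58.4% of genes were called, 30.9% higher and 27.6% lower. GNPs and NSCs differed in 1 member, Dnmt3a, which was lower in GNPs, where 36.3% of genes were called, 23.2% higher and 13.1% lower.

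NEP tumors differed from GNP tumors in 3 members, Eed higher and Dnmt3b and Tet2 lower, where 23.6% of genes were called, 15.5% higher and 8.10% lower. Of the genes called in that comparison 65.6% were higher in NEP tumors (1877 against 984), and 55.6% after a second quantile normalization (1526 against 1221). The interaction tests whether the NEP tumor minus GNP tumor difference is unequal to the NEP minus GNP difference, and an effect of the run that is equal for both lineages drops out of it. It was called for 8 members, where 61.9% of genes were called. Dnmt1, Uhrf1, Dnmt3b, Tet3, Eed and Suz12 had a more positive tumor difference (36.7% of genes tested), and Dnmt3a and Tet2 a more negative difference (25.2%). Ezh2 was not called, nor was Tet1 on the probe set used, while the other tested Tet1 probe sets were called, as given below.

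Between NEP tumors and NEPs 8 members were called, in a comparison where 68.9% of genes were called. The 6 higher members were Dnmt1, Uhrf1, Tet3, Ezh2, Eed and Suz12, against 36.2% of genes higher, and the 2 lower members were Dnmt3a and Tet2, against 32.6% lower. Between GNP tumors and GNPs 6 members were called, where 49.8% of genes were called. Tet2, Tet3 and Ezh2 were higher, against 18.5% of genes, and Dnmt3b, Uhrf1 and Eed were lower, against 31.4%. In comparisons where most genes were called, a count of members near that share is not a result about the members.

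**Figure D1:**
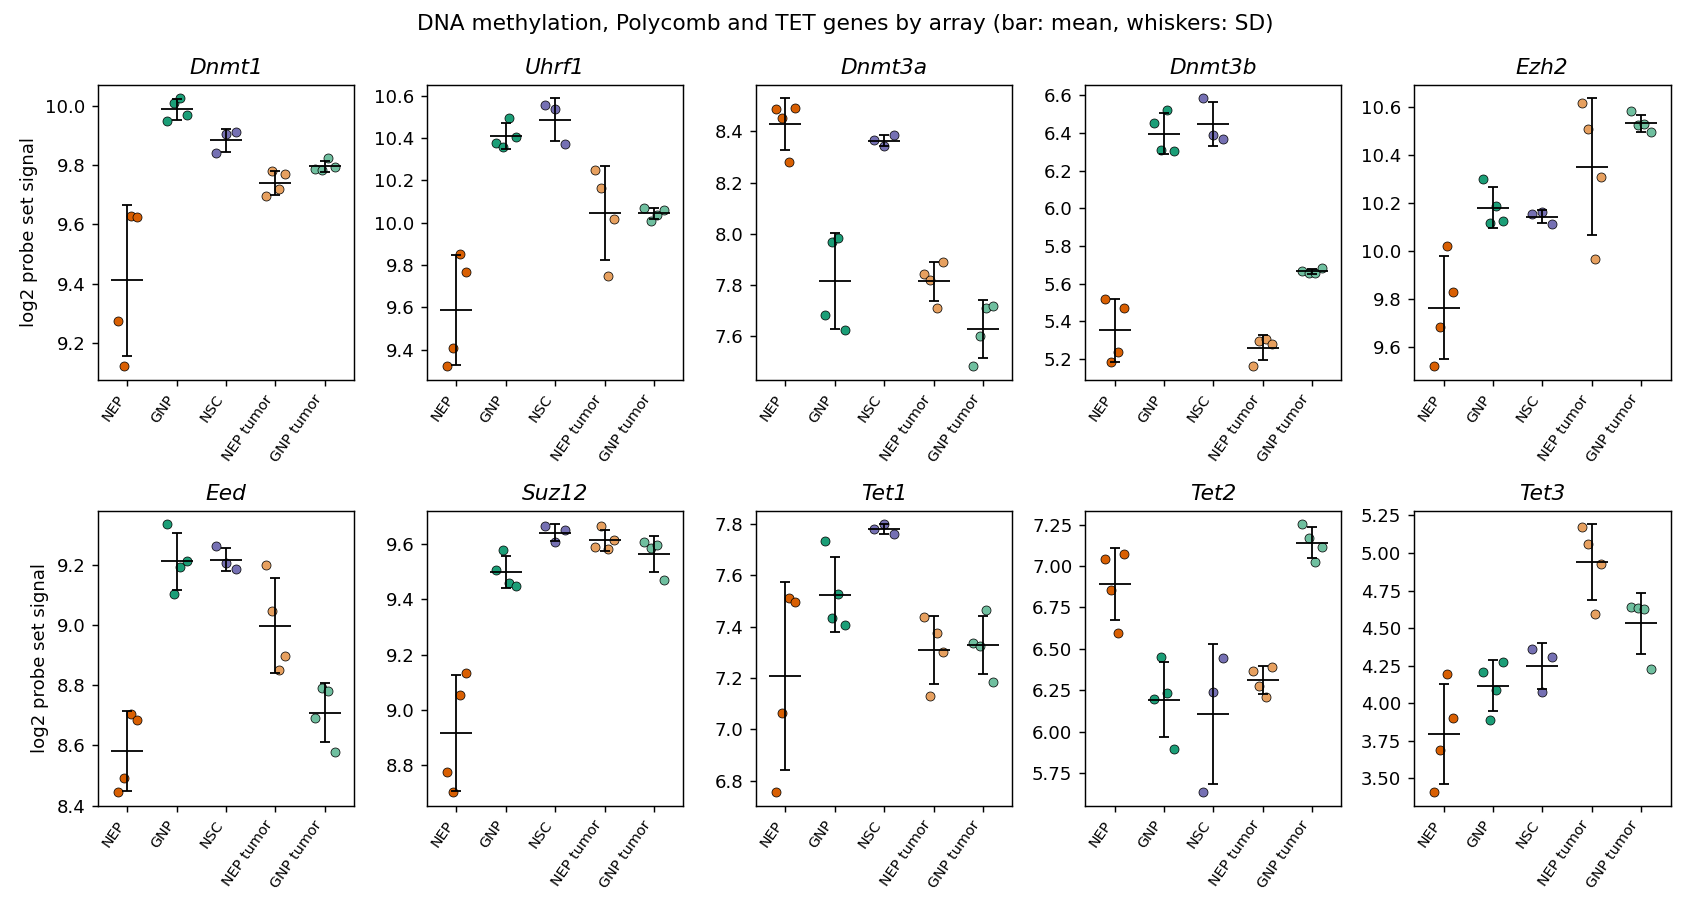
Log2 probe set signal of the 10 genes on the 19 arrays, in a panel per gene, with points for arrays, horizontal bars for group means and whiskers for SD. The means of Dnmt1, Uhrf1, Eed and Suz12 are lowest in NEPs, while Dnmt3a and Tet2 in NEPs lie above GNPs.

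Uhrf1, the hemimethylated DNA reader, had log2 signals of 9.32, 9.41, 9.85 and 9.77 in NEP arrays 1 to 4 and of 10.38, 10.36, 10.49 and 10.40 in GNP arrays 1 to 4. Its NSC arrays read 10.55, 10.53 and 10.37. All 4 NEP arrays lay below every GNP and NSC array, and GNPs and NSCs overlapped. NEPs were 1.77-fold below GNPs, a difference of -0.82 (SE 0.12, adjusted p = 9.19e-06), and -0.90 (SE 0.13, adjusted p = 1.2e-05) from NSCs. The GNP minus NSC difference was -0.08, with a 95% interval from -0.34 to 0.19.

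Dnmt1, the maintenance methyltransferase, gave log2 signals of 9.27, 9.12, 9.63 and 9.62 in NEPs, 9.95, 10.01, 10.02 and 9.97 in GNPs, and 9.84, 9.90 and 9.91 in NSCs. On the probe set used the groups did not overlap, with GNPs highest and NEPs lowest, although GNP minus NSC was 0.10 and not called (adjusted p = 0.434). The other Dnmt1 probe sets gave GNP minus NSC at -0.18 and -0.33, neither called. NEPs stood -0.58 from GNPs (SE 0.090, adjusted p = 2.85e-05), a 1.49-fold lower signal, and -0.47 from NSCs (SE 0.098, adjusted p = 0.000554). On NEP arrays 3 and 4 alone, the arrays with lower microglial signal, the Dnmt1 difference was -0.36 from GNPs and -0.26 from NSCs.

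Between the tumors neither gene of the maintenance pair was called. Uhrf1 read 10.25, 10.17, 9.75 and 10.02 in NEP tumors and 10.07, 10.01, 10.04 and 10.06 in GNP tumors. The GNP tumor values lay inside the NEP tumor range, and the difference was 0.00, with a 95% interval from -0.24 to 0.25. Dnmt1 read 9.70, 9.78, 9.72 and 9.77 in NEP tumors and 9.79, 9.78, 9.82 and 9.79 in GNP tumors. Its ranges just failed to overlap, and the difference was -0.06, with an interval from -0.25 to 0.14. With the second brightest probe set of each gene, both were called between tumors, Uhrf1 at 0.39 and Dnmt1 at -0.34.

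Against the progenitors, the log2 signal of Uhrf1 differed in opposite directions in the 2 lineages, and relative to proliferation genes, a scale described below, in the same direction (-0.24 and -0.25). It was 0.46 higher in NEP tumors than in NEPs (SE 0.12, adjusted p = 0.0022), with an overlap of the arrays, and fell by 0.36 in GNP tumors against GNPs (SE 0.12, adjusted p = 0.0151), with no overlap. Dnmt1 was 0.33 higher in NEP tumors than in NEPs (SE 0.090, adjusted p = 0.00399), and -0.19 in GNP tumors against GNPs was not called (adjusted p = 0.0897). The interaction was 0.82 for Uhrf1 (SE 0.16, adjusted p = 0.000404) and 0.52 for Dnmt1 (SE 0.13, adjusted p = 0.0022). The other Dnmt1 probe sets gave an interaction of 0.29 (adjusted p = 0.129) and 0.34 (adjusted p = 0.132), neither called. With NEP arrays 3 and 4 alone, NEP tumor minus NEP was 0.12 for Dnmt1 and 0.24 for Uhrf1 and neither was called. With NEP tumor arrays 3 and 4 alone, Uhrf1 was at 0.30 and not called.

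PRC2 showed a similar order in the progenitors. Ezh2, its catalytic subunit, had log2 signals of 9.52, 9.68, 10.02 and 9.83 in NEPs, 10.30, 10.11, 10.18 and 10.12 in GNPs, and 10.15, 10.16 and 10.11 in NSCs. No NEP array reached a GNP or NSC array. The NEP minus GNP difference was -0.42 (SE 0.12, adjusted p = 0.00516), a 1.34-fold lower signal, and the NEP minus NSC difference was -0.38 (SE 0.13, adjusted p = 0.0182). With NEP arrays 3 and 4 alone, Ezh2 was -0.26 from GNPs (adjusted p = 0.104) and -0.22 from NSCs, and neither was called. Ezh2 against NSCs was also not called without NEP array 1 (-0.30) or without NSC array 2 (-0.37).

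Eed, the subunit that binds methylated histone H3, read 8.44, 8.49, 8.70 and 8.68 in NEPs and 9.34, 9.10, 9.19 and 9.21 in GNPs. NSC arrays read 9.26, 9.21 and 9.19. Again NEPs lay wholly below both groups, with differences of -0.63 from GNPs (SE 0.087, adjusted p = 7.13e-06) and -0.64 from NSCs (SE 0.094, adjusted p = 2.18e-05). Suz12, the subunit that holds the complex together, read 8.78, 8.70, 9.05 and 9.13 in NEPs, 9.50, 9.58, 9.46 and 9.45 in GNPs, and 9.66, 9.60 and 9.65 in NSCs. Its NEP arrays were the lowest of all, at -0.58 from GNPs (SE 0.082, adjusted p = 9.18e-06) and -0.72 from NSCs (SE 0.088, adjusted p = 2.88e-06).

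The 3 subunits had different patterns in tumors. Ezh2 was 10.62, 10.51, 9.97 and 10.30 in NEP tumors and 10.58, 10.52, 10.53 and 10.50 in GNP tumors, so the highest group means of Ezh2 were in the tumors. It was higher than in the progenitor in both lineages, by 0.59 in NEP tumors (SE 0.12, adjusted p = 0.000348) and by 0.35 in GNP tumors (SE 0.12, adjusted p = 0.0212). The GNP tumor call was lost without GNP array 2 (0.33) or without GNP tumor array 1 (0.34). NEP tumor minus GNP tumor was -0.18, with a 95% interval from -0.43 to 0.07. It was -0.40 and called with NEP tumor arrays 3 and 4 alone (adjusted p = 0.0353), 0.03 with arrays 1 and 2 alone, and -0.06 without array 3. The interaction of 0.24 was not called (adjusted p = 0.236), and it was called without NEP tumor array 3, at 0.36.

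Eed went in opposite directions. It read 9.20, 9.05, 8.85 and 8.90 in NEP tumors, all above the NEP arrays, and 8.69, 8.79, 8.78 and 8.58 in GNP tumors, all below the GNP arrays. The tumor minus progenitor difference was 0.42 for the NEP lineage (SE 0.087, adjusted p = 0.000442) and -0.50 for the GNP lineage (SE 0.087, adjusted p = 0.000139). The interaction was 0.92 (SE 0.12, adjusted p = 8.17e-06), a 1.89-fold change of the lineage ratio. NEP tumors were 0.29 above GNP tumors (SE 0.087, adjusted p = 0.0237), with no overlap of arrays. That call was lost on leaving out NEP tumor array 1 (0.22) or 2 (0.27), or GNP tumor array 1 (0.28) or 4 (0.25), and with NEP tumor arrays 3 and 4 alone (0.16).

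Across NSCs, tumors and GNPs, Suz12 ranges overlapped between neighbours in the order of means, but not between all groups. GNPs, at 9.448 to 9.575, lay below every NSC array (9.605 to 9.663) and every NEP tumor array (9.581 to 9.665). Suz12 read 9.59, 9.67, 9.58 and 9.61 in NEP tumors and 9.61, 9.58, 9.60 and 9.47 in GNP tumors. The tumor ranges overlapped, at a difference of 0.05 with a 95% interval from -0.12 to 0.22, while the second brightest Suz12 probe set gave 0.40 and was called. NEP tumors were 0.70 above NEPs (SE 0.082, adjusted p = 1.12e-06), a 1.62-fold higher signal with no overlap. GNP tumors were 0.07 from GNPs, which was not called (adjusted p = 0.532). The 5 other Suz12 probe sets were also higher in GNP tumors than in GNPs, by 0.19 to 0.47, and 2 of them were called. With the mean of all probe sets, GNP tumor minus GNP was 0.31 and called (adjusted p = 0.0171). The interaction was 0.63 (SE 0.12, adjusted p = 0.000201).

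**Figure D2:**
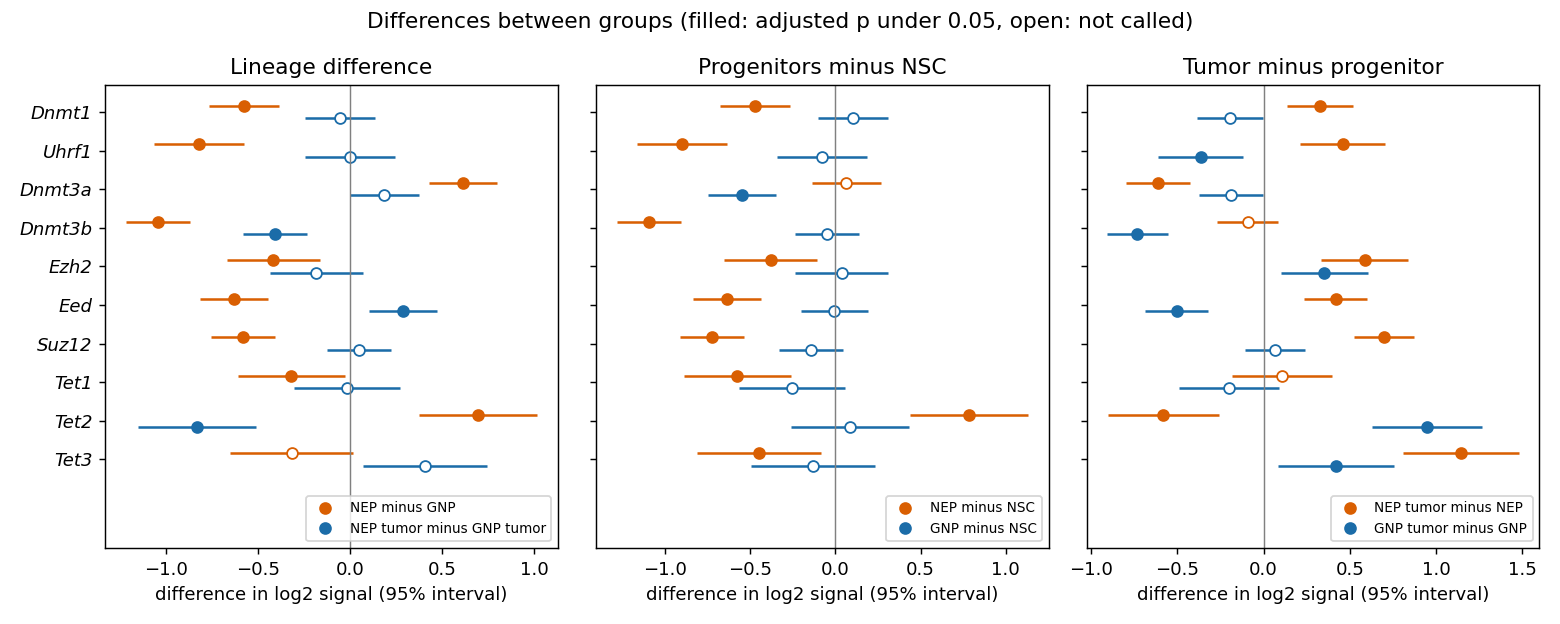
Differences in log2 signal between groups for the 10 genes with 95% intervals, in 3 panels for lineage, progenitors against NSCs, and tumor against progenitor. Filled points were called at an adjusted p under 0.05, and open points were not. Most members lie left of 0 for NEP minus GNP (Uhrf1 at -0.82, Dnmt3b at -1.04) and close to 0 for NEP tumor minus GNP tumor, except Tet2 at -0.83, Dnmt3b at -0.41, Eed at 0.29 and Tet3 at 0.41, which is open.

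The promoters of all 10 genes were read for letters of the E2F type, the binding motif of a factor family that controls genes of the S phase. The motifs searched were TTTCCCGC, TTTCGCGC, TTTGCCGC and TTTGGCGC on both strands, in RefSeq windows of 300 bases on GRCm38.p6, from 250 bases before to 50 after each start. All 10 genes matched the table by symbol, with 15 windows in all, and 4 of the 10 held a match in a window. Of all 32851 windows 744 (2.26%) held a match, as did 704 of 27025 genes (2.60%). The windows of Dnmt3b, Eed and Tet1, which were also lower in NEPs, held none, and a match does not show that a factor binds. A match lay in 1 of 3 Dnmt1 windows, in 1 of 2 Uhrf1 windows and in the only window of Ezh2 and of Suz12. These windows are printed in part: the bases before the start and, for a match after it, a stretch that holds the match. Capitals mark the matches, 5′ to 3′, at chr17:56304063-56304312 (plus strand) for Uhrf1, chr9:20952624-20952873 and chr9:20952574-20952603 (minus strand) for Dnmt1, chr6:47595020-47595280 (minus strand) for Ezh2 and chr11:79992856-79993105 (plus strand) for Suz12.
Uhrf1: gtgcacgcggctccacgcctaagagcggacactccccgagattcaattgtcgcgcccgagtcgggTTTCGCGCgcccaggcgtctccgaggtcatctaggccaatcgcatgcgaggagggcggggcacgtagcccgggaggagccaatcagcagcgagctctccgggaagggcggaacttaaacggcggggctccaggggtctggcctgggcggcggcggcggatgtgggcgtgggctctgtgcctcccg
Dnmt1: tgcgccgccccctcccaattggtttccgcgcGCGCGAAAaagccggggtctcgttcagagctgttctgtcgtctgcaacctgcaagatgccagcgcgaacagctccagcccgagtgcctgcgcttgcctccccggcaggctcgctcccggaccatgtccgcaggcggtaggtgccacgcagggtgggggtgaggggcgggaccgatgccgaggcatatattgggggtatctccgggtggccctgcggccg
Dnmt1 after the start: gcgcggggcagcgTTTGGCGCgggctgtgc
Ezh2: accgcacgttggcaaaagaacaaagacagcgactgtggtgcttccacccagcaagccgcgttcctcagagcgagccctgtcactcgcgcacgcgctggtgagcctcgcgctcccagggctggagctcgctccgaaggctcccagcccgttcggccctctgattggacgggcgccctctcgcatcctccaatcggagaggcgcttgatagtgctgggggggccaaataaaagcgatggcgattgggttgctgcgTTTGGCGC
Suz12: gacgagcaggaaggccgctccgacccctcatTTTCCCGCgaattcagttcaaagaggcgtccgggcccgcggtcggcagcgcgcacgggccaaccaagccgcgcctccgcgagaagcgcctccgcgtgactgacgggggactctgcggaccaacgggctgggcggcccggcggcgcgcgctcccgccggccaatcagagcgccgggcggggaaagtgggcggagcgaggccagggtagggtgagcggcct
The Uhrf1 match lies 185 to 178 bases before the start, and that of Suz12 219 to 212 before. Dnmt1 holds a match on the reverse strand 219 to 212 bases before the start and another that begins 34 bases after it, and the Ezh2 match begins 4 bases after the start. The windows of Dnmt3a, Tet2 and Tet3 also held none of these letters.

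Dnmt3a and Dnmt3b, the enzymes that methylate new sites, differed in opposite directions between NEPs and GNPs. Dnmt3a read 8.49, 8.45, 8.28 and 8.49 in NEPs, 7.68, 7.97, 7.99 and 7.62 in GNPs, and 8.37, 8.34 and 8.38 in NSCs. NEPs and NSCs overlapped and both lay above every GNP array. NEP minus GNP was 0.61 (SE 0.088, adjusted p = 1.07e-05), a 1.53-fold higher signal, and GNP minus NSC was -0.55 (SE 0.095, adjusted p = 0.00028). NEP minus NSC was 0.06, with a 95% interval from -0.14 to 0.26.

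The Dnmt3a probe set used read 7.84, 7.82, 7.71 and 7.89 in NEP tumors and 7.48, 7.60, 7.71 and 7.72 in GNP tumors. NEP tumors lay wholly below NEPs, by -0.61 (SE 0.088, adjusted p = 1.06e-05). GNP tumors and GNPs overlapped, at -0.19 (adjusted p = 0.0894), a difference that was called without GNP array 4, at -0.25. NEP tumors and GNP tumors also overlapped, at 0.19 (adjusted p = 0.138), and the interaction was -0.43 (SE 0.12, adjusted p = 0.00718), or -0.25 and not called with the mean of the probe sets (adjusted p = 0.0506). Other Dnmt3a probe sets differed from these values, as given below.

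On the probe sets used, Dnmt3b had the largest NEP minus GNP difference of the 10 genes, while with the mean of all probe sets Uhrf1 (-1.06) lay beyond Dnmt3b (-1.03). It read 5.52, 5.18, 5.24 and 5.47 in NEPs, 6.45, 6.31, 6.52 and 6.31 in GNPs, and 6.58, 6.39 and 6.37 in NSCs. NEPs lay wholly below both, and GNPs and NSCs overlapped. The difference was -1.04 from GNPs (SE 0.082, adjusted p = 8.28e-09), a 2.06-fold lower signal, and -1.10 from NSCs (SE 0.089, adjusted p = 2.16e-08). The mean was 5.35 in NEP arrays 1 and 2 and also 5.35 in arrays 3 and 4. The part of other cell types in this level was not tested.

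Both tumors lay below GNPs and NSCs for Dnmt3b. NEP tumors read 5.16, 5.29, 5.30 and 5.28 and overlapped with NEPs, at a difference of -0.09 (95% interval from -0.27 to 0.08). GNP tumors read 5.67, 5.65, 5.66 and 5.69, wholly below GNPs at -0.73 (SE 0.082, adjusted p = 1.47e-06). NEP tumors lay below every GNP tumor array, at -0.41 (SE 0.082, adjusted p = 0.00202). The interaction was 0.64 (SE 0.12, adjusted p = 0.000189), so the lineage difference was smaller in tumors than in progenitors. The difference between tumors was not called with the mean of the probe sets (-0.21) or with the second probe set of Dnmt3b (-0.02).

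The 3 Tet genes followed different patterns. Tet2, a dioxygenase that lacks the CXXC domain of its relatives, read 7.04, 6.85, 6.60 and 7.07 in NEPs, 6.20, 6.45, 6.23 and 5.89 in GNPs, and 5.64, 6.24 and 6.44 in NSCs. NEPs lay wholly above both groups. The difference was 0.70 from GNPs (SE 0.15, adjusted p = 0.00064), a 1.62-fold higher signal, and 0.78 from NSCs (SE 0.16, adjusted p = 0.000617). The call against NSCs was lost with the mean of both Tet2 probe sets (0.28) and turned to -0.22 with the second probe set alone.

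Tet2 in the tumors had the reverse order. It read 6.37, 6.28, 6.21 and 6.39 in NEP tumors and 7.25, 7.17, 7.03 and 7.12 in GNP tumors, with no overlap. NEP tumors stood at -0.83 from GNP tumors (SE 0.15, adjusted p = 0.00096), a 1.78-fold lower signal. Against the progenitors, Tet2 fell by 0.58 in the NEP lineage (SE 0.15, adjusted p = 0.00282) and was 0.95 higher in the GNP lineage (SE 0.15, adjusted p = 6.6e-05), in both with no overlap of arrays. The interaction of -1.53 (SE 0.21, adjusted p = 1.42e-05), a 2.88-fold change of the lineage ratio, was the largest among the 10 genes.

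Tet3, a Tet enzyme known from neural cells, has a single probe set here. Its group means ran from 3.80 to 4.94, where the array medians averaged 2.47 to 2.56 by group. A stricter filter at the 75 percentile left Tet3 out of testing. It read 3.41, 3.69, 4.19 and 3.90 in NEPs, 4.21, 3.89, 4.09 and 4.27 in GNPs, and 4.36, 4.07 and 4.31 in NSCs. These groups overlapped. NEP minus GNP was -0.32 (SE 0.16, adjusted p = 0.0846), and it was called without NEP array 3, at -0.45. NEP minus NSC was -0.45 (SE 0.17, adjusted p = 0.0331), a call lost without NEP array 1 (-0.32) or 2 (-0.41), without NSC array 1 (-0.39) or 6 (-0.42), and with NEP arrays 3 and 4 alone (-0.20).

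Tet3 was higher in both tumors than in their progenitors. It read 5.18, 5.06, 4.59 and 4.93 in NEP tumors, above every NEP array, and 4.64, 4.64, 4.63 and 4.23 in GNP tumors, where array 4 lay within the GNP range. The difference was 1.14 in the NEP lineage (SE 0.16, adjusted p = 7.59e-06), a 2.21-fold higher signal, and 0.42 in the GNP lineage (SE 0.16, adjusted p = 0.0375). The GNP lineage call was lost on leaving out GNP array 2 (0.34) or 3 (0.41) or GNP tumor array 1 (0.38), 2 (0.38) or 3 (0.39). The interaction was 0.72 (SE 0.23, adjusted p = 0.0106), and it was not called with NEP arrays 3 and 4 alone (0.48) or NEP tumor arrays 3 and 4 alone (0.55). NEP tumor minus GNP tumor was 0.41 (adjusted p = 0.0749), and it was called without NEP tumor array 3, at 0.52.

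Tet1, the CXXC-domain enzyme of pluripotent and progenitor cells, read 6.75, 7.06, 7.51 and 7.49 in NEPs and 7.73, 7.43, 7.53 and 7.41 in GNPs. NSC arrays read 7.78, 7.80 and 7.76. NEP arrays 3 and 4 lay among the GNP arrays and arrays 1 and 2 below them. NEP minus GNP was -0.32 (SE 0.14, adjusted p = 0.0473). That call was lost without NEP array 1 (-0.17) or 2 (-0.27) and without GNP array 1 (-0.25), 2 (-0.35, adjusted p = 0.0509) or 3 (-0.32), and the difference was -0.02 with NEP arrays 3 and 4 alone.

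Against NSCs the Tet1 difference was larger, at -0.57 (SE 0.15, adjusted p = 0.00319) with no overlap, and -0.28 with NEP arrays 3 and 4 alone. Tet1 read 7.44, 7.13, 7.37 and 7.30 in NEP tumors and 7.34, 7.32, 7.46 and 7.19 in GNP tumors, ranges that overlapped. No tumor comparison of the Tet1 probe set used was called: the difference was -0.02 between tumors, 0.10 for NEP tumor minus NEP and -0.20 for GNP tumor minus GNP.

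The 8 members without overlap between NEPs and GNPs (2 higher, 6 lower in NEPs) compare with 57.1% of all genes tested that did not overlap. The count was also 8 for NEPs against NSCs, where the background was 56.0%, and 4 for GNPs against NSCs, where it was 50.9%. Between tumors 4 members did not overlap, against 32.9% of genes. In each lineage 6 members did not overlap between tumor and progenitor, against 55.1% of genes in the NEP lineage and 54.9% in the GNP lineage.

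NEP arrays 1 and 2, with higher microglial signal, differed from NEP arrays 3 and 4 for some members and not for others. The mean of NEP arrays 3 and 4 minus that of arrays 1 and 2 was 0.60 for Tet1, 0.50 for Tet3, 0.44 for Uhrf1, 0.43 for Dnmt1, 0.35 for Suz12, 0.33 for Ezh2 and 0.23 for Eed. It was 0.00 for Dnmt3b, -0.08 for Dnmt3a and -0.12 for Tet2. In NEP tumors, arrays 3 and 4 minus arrays 1 and 2 came to -0.43 for Ezh2, -0.36 for Tet3, -0.33 for Uhrf1 and -0.25 for Eed, and to -0.03 to 0.06 for the other members. With NEP arrays 3 and 4 alone, 7 members remained called against GNPs, where 7329 of all 12148 genes tested were called. Tet1 and Ezh2 were the calls lost.

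Genes of DNA replication and the cell cycle moved with several members. A comparison list of 33 proliferation genes, such as E2f1, E2f2 and Cdc45, had 33 genes lower and 0 higher in NEPs than in GNPs, with a median difference of -0.78 against -0.11 over all genes tested. The list median was 8.57, 8.74, 9.25 and 8.92 in NEP arrays 1 to 4, and 9.51 to 9.78 in GNPs. In tumors it was 9.34 to 9.71 (NEP tumor) and 9.47 to 9.60 (GNP tumor).

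Values were also taken relative to that median on each array. The list median averaged 8.87 in NEPs and 9.65 in GNPs, so this scale raises every gene's NEP minus GNP difference by the same gap. Any gene lower in NEPs by less than that gap changes sign on it. The NEP minus GNP difference of Uhrf1 was -0.05 on this relative scale, with overlapping arrays, and those of Dnmt1 (0.20), Suz12 (0.19) and Eed (0.14) also overlapped. Dnmt3b, at -0.27, overlapped as well. Dnmt3a (1.39) and Tet2 (1.47) lay higher in NEPs with no overlap, as did Ezh2 (0.36), Tet1 (0.46) and Tet3 (0.46). On this scale Dnmt1, Suz12, Eed, Ezh2, Tet1 and Tet3 thus had the sign opposite to their log2 signal, as the shift gives for any gene with so small a difference. The relative values were not tested, and the share of all genes without overlap on this scale was not counted.

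Between tumors, the relative differences stayed small for the same genes. Uhrf1 was at -0.04, Dnmt1 at -0.09 and Suz12 at 0.01, each with overlapping arrays. Tet2 (-0.87) and Dnmt3b (-0.45) lay lower in NEP tumors, and Tet3 (0.37) and Eed (0.25) higher, with no overlap.

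Between tumors and progenitors the relative scale also changed signs. The list median averaged 9.57 in NEP tumors and 8.87 in NEPs, so every gene's NEP tumor minus NEP difference is lowered by that gap. For NEP tumor minus NEP the relative difference was -0.24 for Uhrf1, with no overlap, and -0.37 for Dnmt1, -0.28 for Eed, -0.12 for Ezh2 and -0.01 for Suz12, each with overlap. Of the 6 members called higher in NEP tumors on the log2 scale, these 5 thus had the opposite sign relative to proliferation genes, and Tet3 (0.44) kept its sign with no overlap. Dnmt3a (-1.31), Tet2 (-1.28), Dnmt3b (-0.79) and Tet1 (-0.60) lay lower in NEP tumors with no overlap. For GNP tumor minus GNP, Uhrf1 (-0.25), Dnmt3b (-0.62) and Eed (-0.39) lay lower, and Ezh2 (0.46) and Tet2 (1.06) higher, with no overlap. The remaining members overlapped in that lineage, Tet3 at 0.53, Suz12 at 0.18, Tet1 at -0.09, Dnmt1 at -0.08 and Dnmt3a at -0.08. The proliferation genes and the members share arrays, and whether they share a cause was not tested.

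**Figure D3:**
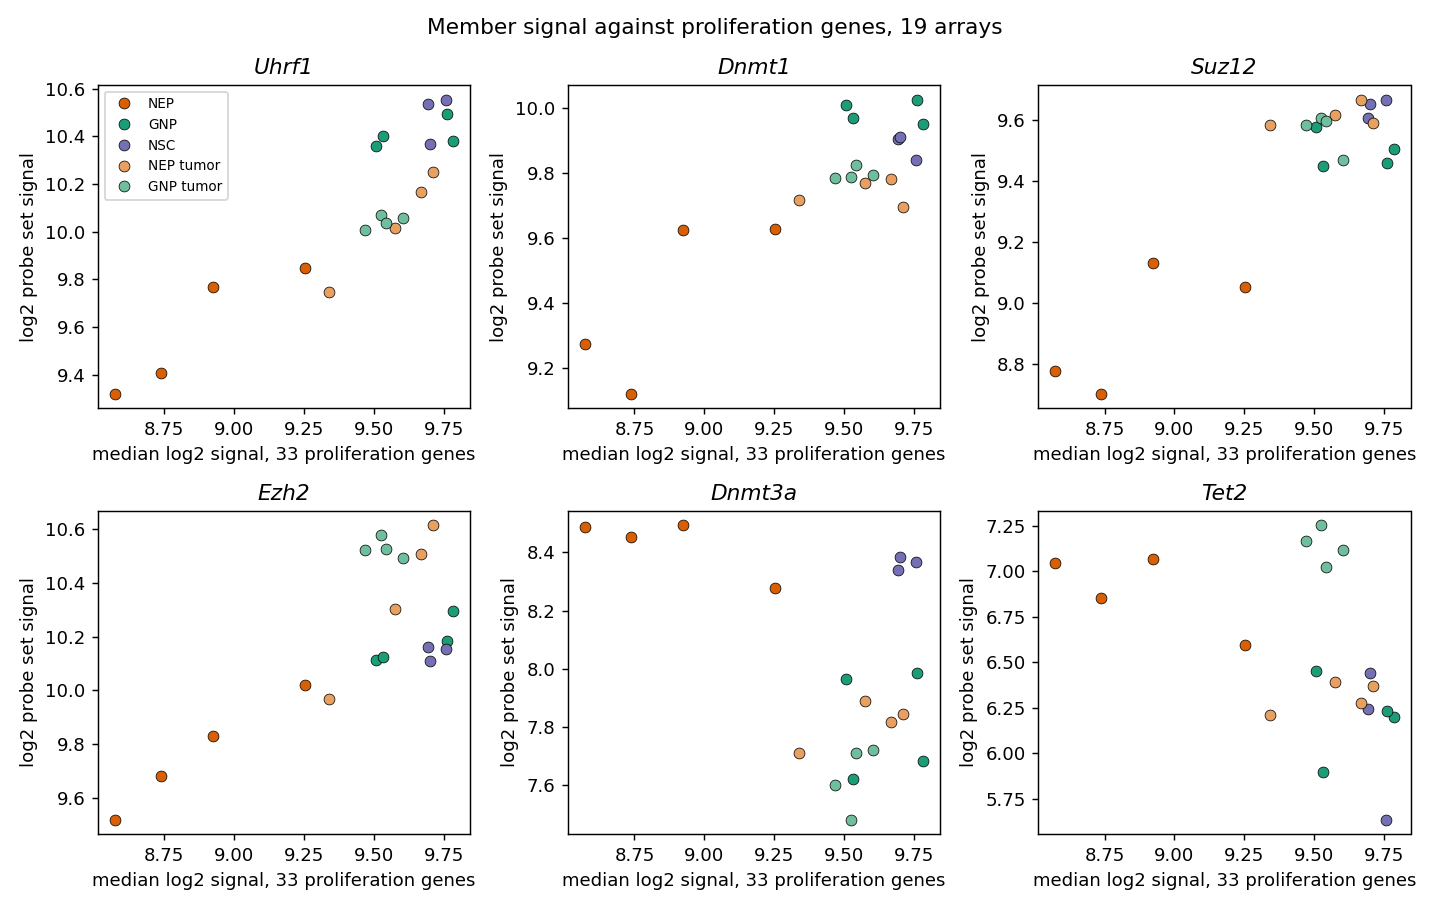
Log2 signal of Uhrf1, Dnmt1, Suz12, Ezh2, Dnmt3a and Tet2 on the vertical axis against the median log2 signal of 33 proliferation genes on the horizontal axis, in a point per array and a colour per group. NEP arrays lie at the left, from 8.57 to 9.25, where Uhrf1, Dnmt1 and Suz12 are low and Dnmt3a and Tet2 are higher than in GNPs.

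Other probe sets of the members gave a check. The members have 28 probe sets, of which 26 passed the filter, so 16 could be set beside the probe set used. For NEP minus GNP, and likewise for the interaction, 15 of 16 had the same sign. The same sign was found for 13 of 16 in NEP tumor minus NEP, 10 of 16 in GNP tumor minus GNP, and 11 of 16 in NEP minus NSC, in GNP minus NSC and between tumors. The 5 other Suz12 probe sets were all lower in NEPs, from -0.59 to -0.77, and the second Uhrf1 probe set gave -1.30 against GNPs and -1.53 against NSCs. In NEP tumor against NEP 2 were called opposite to a called member, and 0 in each of the other comparisons.

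Dnmt3a was the exception. Probe sets 1423065_at and 1423066_at read 5.72 and 6.40 on average in NEP tumors and 4.92 and 5.58 in NEPs, so both were higher in the tumor, by 0.80 and 0.83, where the probe set used, 1423063_at, was lower by -0.61. In GNP tumors against GNPs they were also higher, by 1.26 and 0.80. Both were far higher in NSCs than in NEPs, with NEP minus NSC at -1.52 and -2.08, where the probe set used gave 0.06. Probe set 1460324_at ran with the one used, at 0.46 for NEP minus GNP and -0.33 for NEP tumor minus NEP. With the mean of all probe sets, Dnmt3a was 0.07 for NEP tumor minus NEP and 0.33 for GNP tumor minus GNP (adjusted p = 0.00195). The direction of Dnmt3a between tumors and progenitors therefore depends on the probe set, and the transcripts that each one reads are not analysed here.

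The other Tet1 probe sets gave larger differences than the one used. Tet1 probe sets 1429448_s_at and 1419896_at gave NEP minus GNP at -0.77 and -0.71, and NEP minus NSC at -1.97 and -1.61. Both were higher in NEP tumors than in NEPs, by 1.49 and 1.37, where the probe set used gave 0.10 and was not called. Their interactions were 1.14 (adjusted p = 0.000922) and 0.92 (adjusted p = 0.00267), where that of the probe set used was 0.30 and not called. In GNP tumors against GNPs they gave 0.35, not called, and 0.45 (adjusted p = 0.0294), where the probe set used gave -0.20. For Tet2, probe set 1438781_at gave 0.83 for NEP minus GNP, -1.04 between tumors and -1.87 for the interaction, the same signs as the probe set used. For GNP minus NSC it gave -1.05, where the probe set used gave 0.09.

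**Figure D4:**
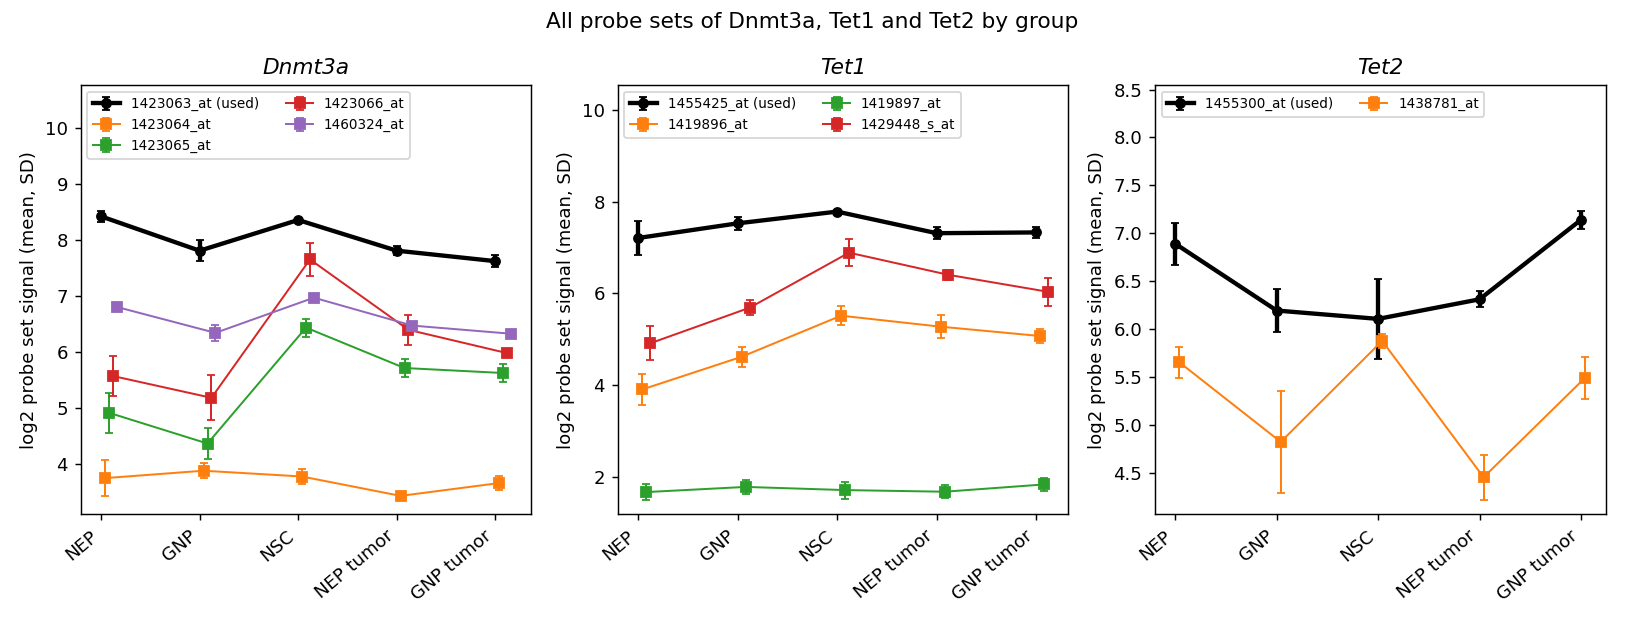
Mean log2 signal of each probe set of Dnmt3a, Tet1 and Tet2 in the 5 groups, with SD as whiskers and the probe set used in black. The Dnmt3a probe sets 1423065_at and 1423066_at peak in NSCs and are higher in both tumors than in the matching progenitors, unlike the probe set used.

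Eed has a second probe set that was dim throughout. That probe set, 1453830_at, did not pass the filter, with a mean of 1.39 in NEPs and 1.36 in GNPs. The mean of both Eed probe sets gave smaller differences, of -0.31 for NEP minus GNP, which was called, and of -0.09 for GNP tumor minus GNP and 0.07 between tumors, which were not.

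The partners of these enzymes were counted on companion lists. Of 25 DNA methylation partners and readers tested, 6 were higher and 11 lower in NEPs than in GNPs, with a median of -0.08 against -0.11 over all genes tested. Among all genes 29.6% were higher and 39.9% lower, so the count is near the background. Gadd45g, a stress-response gene linked to active demethylation, was 2.73 higher, and Gadd45a of the same family was -1.56. Mbd4, a glycosylase at methylated sites, was -0.73 in NEPs and 1.94 in NEP tumors against NEPs. In NEP tumors against NEPs 12 of these 25 were higher and 4 lower, beside 36.2% and 32.6% of all genes. In GNP tumors against GNPs 6 were higher and 5 lower, beside 18.5% and 31.4%.

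Of 10 PRC2 partners and histone demethylases, 0 were higher and 5 lower in NEPs than in GNPs, with a median of -0.26, where 29.6% of all genes were higher and 39.9% lower. Mtf2, a Polycomb-like PRC2 accessory subunit, was -0.87, Epop, which links PRC2 to elongin, -0.45, and Rbbp4, a histone-binding PRC2 subunit, -0.37. In NEP tumors against NEPs 7 were higher and 1 lower (36.2% and 32.6% of all genes), with Epop at 1.74 and Mtf2 at 0.89. Between tumors 0 were higher and 1 lower, Phf1 at -0.40, another Polycomb-like subunit.

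The sister complex PRC1 ubiquitinates histone H2A. Of 25 PRC1 and deubiquitinase genes 1 was higher and 15 were lower in NEPs than in GNPs, beside 29.6% and 39.9% of all genes, with a median of -0.38 against -0.11. Scmh1 (-2.27) and Cbx2 (-1.30), both of canonical PRC1, were among the lower genes and Phc3 (1.02) was the higher gene. In NEP tumors against NEPs 13 were higher and 1 lower, beside 36.2% and 32.6% of all genes, with Scmh1 at 1.44 and Cbx2 at 1.16. Of 11 methyltransferases and readers of other histone marks, 0 were higher and 5 lower in NEPs than in GNPs (29.6% and 39.9% of all genes), with Suv39h2, which methylates histone H3 in heterochromatin, at -1.63, and at 1.98 in NEP tumors against NEPs.

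The genes whose signal ran most like each member over the 19 arrays were ranked by Pearson's r, given here as a description over arrays that share the same 5 groups. For Uhrf1 these were Pclaf (0.967), Gmnn (0.962) and Rps6ka6 (0.960), and for Dnmt1 Sphkap (0.968), Insm1 (0.964) and Nkain1 (0.962). For Ezh2 they were Tnpo3 (0.967), Eri2 (0.957) and Tsr2 (0.957), for Eed Slc6a15 (0.958), Alyref (0.953) and Inafm2 (0.953), and for Suz12 Cenpv (0.973), Barhl1 (0.970) and Nup37 (0.969). Pgf was nearest to Dnmt3b (0.979), 2900026A02Rik to Dnmt3a (0.959), Stil to Tet1 (0.911), Ccdc136 to Tet2 (0.905) and Shmt2 to Tet3 (0.960).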

How the data were processed

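RNA of 19 samples was labelled after amplification with the Ambion WT Expression Kit, per the labels' protocols. The authors deposited a log2 signal for each probe set. The submitters' processing notes name RMA and Affymetrix Expression Console, with versions not given in the sources used here. Hybridisation spike-ins bore out the log base: Cre minus BioB was 5.52, against 6.06 for log2, 4.20 for natural log and 1.82 for log10. Background and scaling steps before deposit could compress differences of dim genes, and the number of arrays limits the precision.

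Of 45101 probe sets, 34945 had 1 symbol. The brightest probe set by mean stood for each gene, and 12148 genes at or above the array median in at least 3 arrays were tested. R 4.3.3 with limma 3.58.1 fitted 5 group means over all arrays (lmFit, eBayes, two-sided). Scripts were tested on simulated data. The members and lists were chosen with earlier results of these data known. Named genes were all members, up to 3 called genes with the largest rise and fall of each companion list in a comparison (a selection of them is given), and the 3 genes most like each member. Same-numbered arrays did not deviate together (correlations from -0.18 to 0.12), so no block was used. Other settings tried were probe set choice, normalization, filters, variance trend, array weights, a replicate block and left-out arrays. Probe sets were also tested singly, adjusted over 22136 probe sets, which was chosen after seeing the data.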

Additional observations from a re-analysis of the deposited data

Results flagged for a closer look

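The difference between lineages was itself unequal in tumors and progenitors for 8 members, by the interaction of the limma fit. That interaction was called for 61.9% of all genes tested. The tumor difference minus the progenitor difference was 0.52 for Dnmt1, 0.82 for Uhrf1, 0.64 for Dnmt3b, 0.72 for Tet3, 0.92 for Eed and 0.63 for Suz12. It was -0.43 for Dnmt3a and -1.53 for Tet2. The call of Dnmt1 was lost on each of its other probe sets (0.29 and 0.34), and that of Dnmt3a with the mean of its probe sets (-0.25). The Tet3 call was lost with NEP arrays 3 and 4 alone (0.48) or NEP tumor arrays 3 and 4 alone (0.55). Tet1, not among the 8, was called on its other tested probe sets (1.14 and 0.92). Among 40 sets of 4 arrays checked for a value far from the other 3, array 4 of the GNP tumors stood apart for Suz12, at 9.47, and for Tet3, at 4.23. Chance flags about 1 in 20 such sets.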

How the results depend on the processing

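Limits: group and run cannot be told apart outside the comparisons within a run, no source states separate animals, and the number of arrays limits the precision. Over the 70 member differences, values changed by leaving out an array kept direction and side of the threshold in 581 cases, lost the call in 22, gained it in 4 and changed sign in 13. Under the other settings these counts were 649, 28, 34 and 25. Of all sign changes, 2 were of called differences.

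Counts of members called were within 1.5 times the reported count except as follows. For GNP against NSC the count of 1 became 4 with the mean of all probe sets, 4 with the second brightest probe set and 3 with array weights. Between tumors the count of 3 became 6 with array weights and 1 with the mean of all probe sets. With same-numbered arrays as a replicate block, 4 members rather than 8 were called for NEP tumor against NEP (Uhrf1, Dnmt1, Ezh2 and Eed were lost), although the numbers do not pair the arrays. For the other comparisons the block gave 8 (NEP against GNP), 2 (between tumors), 8 (interaction) and 7 (GNP tumor against GNP). Leaving out an array in turn gave 8 to 10 members for NEP against GNP, 7 to 9 for NEP against NSC, 1 to 1 for GNP against NSC, 2 to 4 between tumors, 8 to 9 for the interaction, 8 to 8 for NEP tumor against NEP and 4 to 7 for GNP tumor against GNP. Over all genes, array weights called 5653 rather than 2861 between tumors and 7041 rather than 4409 for GNP against NSC.

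With the mean of all probe sets, the sign turned for Dnmt3a in NEP minus NSC (-0.75), NEP tumor minus NEP (0.073) and GNP tumor minus GNP (0.33), for Dnmt1 (-0.13), Dnmt3b (0.060) and Tet2 (-0.48) in GNP minus NSC, for Tet1 (0.099) between tumors, and for Dnmt1 (0.027) and Tet1 (0.16) in GNP tumor minus GNP. With the second brightest probe set it turned in NEP minus NSC for Dnmt3a (-0.17) and Tet2 (-0.22), in GNP minus NSC for Dnmt1 (-0.18), Dnmt3b (0.17) and Tet2 (-1.05), between tumors for Tet1 (0.37), in NEP tumor minus NEP for Dnmt3b (0.0052), and in GNP tumor minus GNP for Dnmt1 (0.088) and Tet1 (0.35). Array weights turned Dnmt3b (0.039) in GNP minus NSC and Uhrf1 (-0.016) between tumors, and second quantile normalization turned Uhrf1 (-0.043) between tumors. NEP tumor arrays 1 and 2 alone turned Ezh2 (0.031), arrays 3 and 4 alone Uhrf1 (-0.16) and Tet1 (0.010) between tumors, and NEP arrays 3 and 4 alone turned Tet1 (-0.19) in NEP tumor minus NEP. Among differences not called, leaving out an array in turn spanned 0 for GNP minus NSC of Ezh2 (-0.0017 to 0.060), Eed (-0.047 to 0.030), Dnmt3b (-0.093 to 0.017) and Tet2 (-0.15 to 0.26), for NEP tumor minus GNP tumor of Uhrf1 (-0.067 to 0.10) and Tet1 (-0.064 to 0.044), and for NEP tumor minus NEP of Tet1 (-0.046 to 0.21). The cause of these changes was not tested.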
